A study of Cricetulus griseus with 2 samples.

Results

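Il6 and Lif encode 2 secreted cytokines of the interleukin-6 family, and Socs3 encodes the inhibitor that such cytokines induce against their own signal. These 3 genes were followed in Chinese hamster ovary (CHO) cells, an established ovary-derived line used widely in adhesion and platelet research, with and without tigecycline, an antibiotic of the glycylcycline class, which blocks bacterial ribosomes. The genes were taken by their identifiers, ENSCGRG00015019083 (Il6), ENSCGRG00015001512 (Lif) and ENSCGRG00015004712 (Socs3), and make up 3 of the 30211 genes of the deposited expression table. Sequencing gave 1 library per condition, a control without the drug (0 mg/ml) and cells given tigecycline at 0.2 mg/ml, both at 48 h, and no clone or passage is stated for the line.

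Cytokines of this family signal through receptor complexes that share the chain gp130. Il6 first binds its own receptor, Il6ra, whereas Lif binds the Lif receptor. The bound complex activates Janus kinases (JAK), which phosphorylate STAT transcription factors, mainly Stat3. Socs3 is one of the genes that Stat3 turns on, and its product binds gp130 and the kinases and so limits the signal. Il6 is known as an inducer of the acute phase response and Lif for keeping stem cells undifferentiated, and both genes are commonly induced by inflammatory and stress signals.

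The levels below are TPM, in which reads are divided by gene length and scaled to a fixed sum per library, so that levels of different genes can be set side by side. The change of a gene is the difference of log2(TPM + 1) between the tigecycline and the control library. A gene is said to have risen or fallen where this change was 1 or more in size, and smaller changes are given as values. The limit has the same number as the fold limit of the study, but that one was set on fold changes from read counts together with a false discovery rate, so a gene can pass one and not the other. With 1 library per condition no difference had a replicate check, no test was possible and no p-value is given. The 3 genes were chosen because of their change in these same libraries, so their changes are a description.

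The cytokines were higher and their inhibitor was lower in the tigecycline library. Il6 was at 3.18 TPM in the control library and at 26.9 TPM in the tigecycline library. This was 8.47 times the control level, a change of 2.74 on the log2(TPM + 1) scale, and only 84 genes of the table had a larger rise. Lif was at 55.3 TPM in the control library and at 103 TPM in the tigecycline library. The Lif ratio was 1.87 and the change was 0.89, which is under the limit of 1. Socs3 stood at 40.4 TPM in the control and at 15.3 TPM with tigecycline. Its control level was 2.65 times its tigecycline level, and it fell by 1.35 on the log2(TPM + 1) scale. Thus Il6 rose, Socs3 fell and Lif was higher without reaching the limit used here, although the study lists Lif among its differentially expressed genes. Of all 30211 genes 6.05% passed the limit, with 2.85% of the table rising and 3.2% falling. The table includes 1739 assembled loci without annotation and many genes at low levels. Among the 200 annotated genes nearest in mean TPM to Il6, Lif and Socs3 the shares were 10.5%, 12% and 7%. The whole-table shares below are thus a low background for lists of expressed genes. In RNA of whole cultures, fewer cells with a transcript and less of it per cell cannot be told apart. TPM does not show how many reads a level rests on. Rounding of the deposited values to 2 decimals allows an Il6 ratio between 8.45 and 8.48, a range that covers rounding and no other error.

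**Figure D1:**
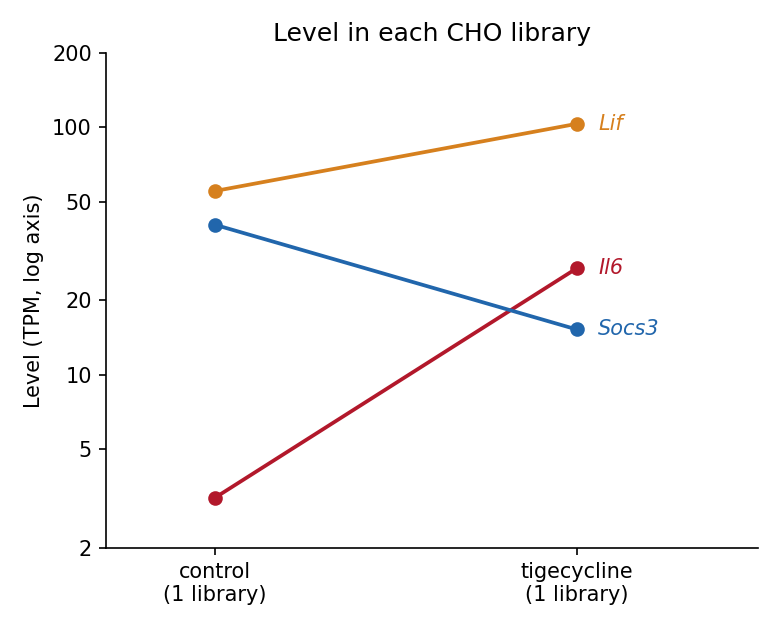
Level of Il6, Lif and Socs3 in TPM (vertical log axis) in the control and the tigecycline library, 1 point per library, with lines that join the points of a gene. Lif went from 55.3 to 103 TPM, Il6 from 3.18 to 26.9 TPM and Socs3 from 40.4 to 15.3 TPM, so that the lines of Il6 and Socs3 cross.

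The order of the 3 levels differed between the libraries. In the control library Lif was highest, Socs3 was next and Il6 was lowest, and with tigecycline Lif was again highest but Il6 stood above Socs3. As no level has a spread, neighbours in these orders could not be compared with replicate error. Il6 was at 0.0787 times the level of Socs3 in the control library and at 1.77 times in the tigecycline library. The ratio of Lif to Socs3 was 1.37 in the control and 6.78 with tigecycline. The summed TPM of the 2 cytokines was 1.45 times that of Socs3 in the control library and 8.55 times in the tigecycline library. On the log2(TPM + 1) scale the change of Il6 lay 4.09 above that of Socs3, and the change of Lif lay 2.24 above it.

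The cytokines also differed from each other. Lif was already well expressed without tigecycline, at 17.4 times the level of Il6, and this ratio was 3.84 in the tigecycline library. Il6 had the larger ratio between libraries, while Lif had the larger gain in level, 48.1 TPM against 23.8 TPM for Il6. In the control library 61.8% of all genes were at or below the level of Il6, and in the tigecycline library 80.2% were. For Lif these shares were 88.8% and 93.6%, and for Socs3 they were 85.3% and 73.8%. Il6 thus moved furthest within the order of all genes, from place 11532 to place 5969 by level. Socs3 moved the other way, from place 4433 to place 7917.

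To see what genes of like abundance did in the same libraries, each of the 3 was set beside the 200 annotated genes nearest to it in mean TPM, 100 above and 100 below. The genes around Il6 had mean TPM between 14.5 and 15.6, and their median change was -0.03. Their quartiles were -0.48 and 0.35. Of these 200 genes 3% rose and 7.5% fell, and 1 gene changed upward by as much as Il6. That gene has no symbol and was listed at 0 TPM in the control and at 29.8 TPM with tigecycline. Il6 therefore stood apart from all but 1 of its neighbours.

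The genes around Lif had mean TPM between 76.1 and 82.8 and a median change of 0.14, with quartiles of -0.22 and 0.52. There 7.5% rose and 4.5% fell, and 22 of the 200 had a change as large as that of Lif. Lif was thus in the upper part of its neighbours but inside their range. Among the genes around Socs3, with mean TPM between 27.0 and 28.6, the median change was 0.12 and the quartiles were -0.32 and 0.41. Here 2.5% rose and 4.5% fell, and 3 genes were lower by as much as Socs3. One of the 3 was Pxn, which encodes the focal adhesion protein paxillin and went from 41.4 to 15.4 TPM, and the others have no symbol. Pxn was named after its values were seen. These shares describe the 2 libraries and are not a measure of chance.

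**Figure D2:**
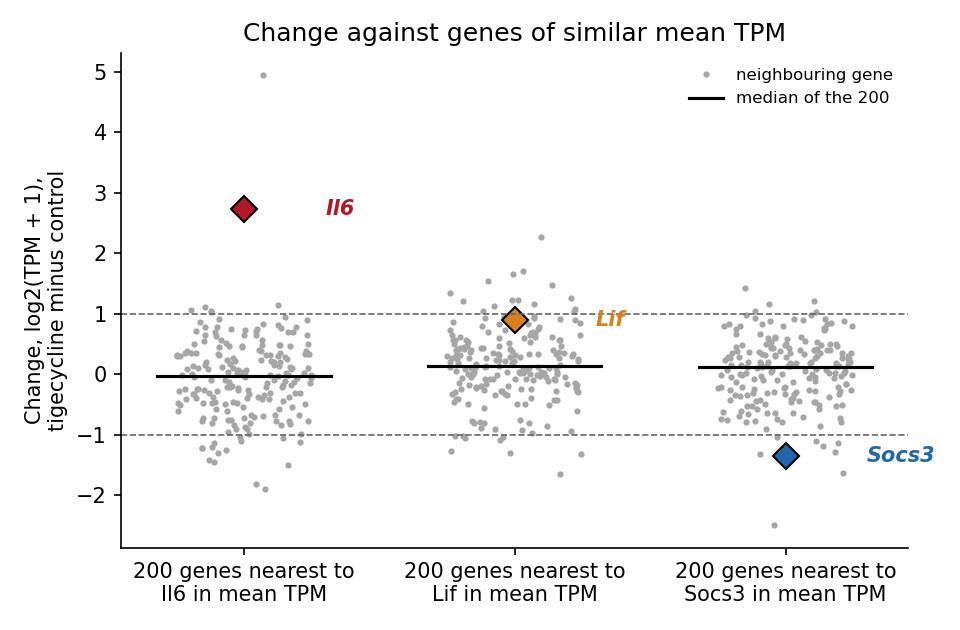
Change in log2(TPM + 1), tigecycline minus control, of Il6, Lif and Socs3 (diamonds) and of the 200 annotated genes nearest to each in mean TPM (grey points, spread sideways for view), with the median of the 200 as a black bar and dashed lines at changes of 1 and -1. Il6, at 2.74, has 1 neighbour above it, Lif, at 0.89, lies within its neighbours, and Socs3, at -1.35, has 3 neighbours below it.

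Other genes of the gp130 axis were looked up from a list of 62 symbols that covers ligands, receptors, kinases and STATs, inhibitors, targets and upstream stress and NF-kB pathway genes. An identifier was found for 10 of them (16.1%), and Il6st (gp130 itself), Lifr, the Janus kinases and the STAT genes were not analysed here. All identifiers come from genes that the study had called significant in these libraries, so the directions that follow are not independent evidence. Of the 10 genes, 4 rose and 4 fell, against 2.85% and 3.2% of the whole table, and Lif and Il6ra stayed under the limit.

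Among ligands, another cytokine of the family was lower. Il11, which signals through gp130 with its own receptor, stood at 20.3 TPM in the control and fell to 9.4 TPM, a change of -1.03 that was -0.81 with a pseudocount of 5. The family did not move as one group, since Il6 rose, Lif was higher under the limit and Il11 fell. Among receptors, Il6ra, the chain that binds Il6, was listed at 4.57 TPM in the control and at 1.99 TPM with tigecycline (change -0.90, or -1.16 and -0.45 with pseudocounts of 0.1 and 5, and a log2 ratio of -1.20). The library with more Il6 transcript was thus the one with less Il6ra transcript. In the control library Il6 was below Il6ra, and in the tigecycline library Il6 was far above it.

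Among inhibitors, Socs5, another member of the SOCS family, fell along with Socs3, from 28.8 to 10.5 TPM (change -1.37). Its size was close to the change of -1.35 in Socs3. Bcl2l1, which encodes the survival protein Bcl-xL and is a known STAT target, fell from 62.6 to 24.4 TPM (-1.33). Of the 12 upstream stress and NF-kB pathway genes, inducers and inhibitors alike, 3 had an identifier, and these had been called by the study. They rose, as did 2.85% of the whole table. Tnfaip3 encodes A20, an inhibitor of NF-kB signalling that is itself induced by NF-kB, and its change was 1.52. Ddit3 encodes the stress-induced transcription factor CHOP and rose from 87.0 to 350 TPM (2.0). Gadd45b, a stress-response gene, had a change of 4.93.

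The wider pathway was described with the KEGG list Jak-STAT signaling pathway, for which the study named 15 differentially expressed genes, including Il6, Lif and Socs3. Because the study chose the members on these libraries, their counts do not stand as independent evidence. Of the 15 genes 3 rose, 9 fell and 3 stayed under the limit, against 2.85% and 3.2% of the whole table. After rescaling, 2 rose and 9 fell. With a pseudocount of 5, 2 rose and 7 fell, and with a pseudocount of 0.1, 3 rose and 11 fell. With a pseudocount of 1 the median change was -1.14, against 0 over all genes of the table. Over those annotated genes whose mean TPM was 1 or more the median was 0.05. Without Il6, Lif and Socs3, 2 of the other 12 genes were higher and 10 were lower, and their median change was -1.23. Il6 and Lif were therefore 2 of the 4 higher genes of the list, and Socs3 was among its 11 lower ones. Of the 15 members 8 have no symbol here. The largest rise of the list was in one of these, ENSCGRG00015023620, from 1.87 to 19.6 TPM (2.84), followed by Il6. The largest fall was in ENSCGRG00015013587, from 15.0 to 2.59 TPM (-2.15).

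The KEGG list Cytokine-cytokine receptor interaction, also of 15 genes chosen by the study, shares 8 genes with the Jak-STAT list (53.3% of each). It held Il6 and Lif but not Socs3. In this list 6 genes rose, 6 fell and 3 stayed under the limit, against 2.85% rising and 3.2% falling in the whole table, and the median change was -0.83. With a pseudocount of 5, 5 rose and 3 fell, and the median was -0.36. The rises included Relt, a receptor of the TNF receptor superfamily, from 7.69 to 29.8 TPM (1.83). The chemokine gene Ccl17 also rose, from 2.3 to 7.38 TPM, a change of 1.34 that was 0.76 with a pseudocount of 5. Tnfrsf1a, a receptor of TNF, was among the genes that fell (-1.68). The largest rise was in ENSCGRG00015010553, from 2.02 to 33.2 TPM (3.50), and Il6 had the third largest.

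**Figure D3:**
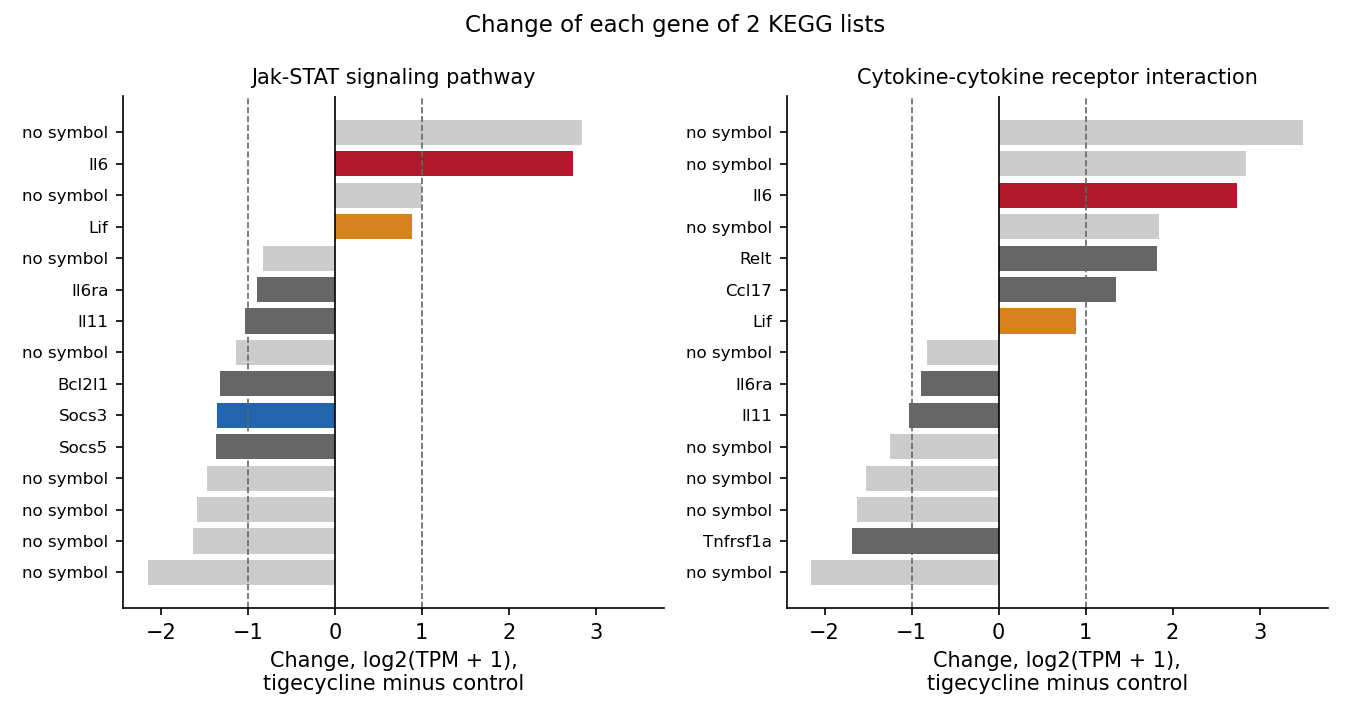
Change in log2(TPM + 1), tigecycline minus control (horizontal axis), of the 15 genes that the study listed for each of 2 KEGG pathways, 1 bar per gene, with Il6 in red, Lif in orange, Socs3 in blue, other genes with a symbol in dark grey, genes without one in light grey and dashed lines at 1 and -1. In the Jak-STAT list 4 bars point to higher and 11 to lower expression with tigecycline, and in the cytokine receptor list 7 and 8.

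GO terms on the same pathway were short lists of the same kind, all chosen by the study on these libraries. The interleukin-6-mediated signaling pathway held Il6, Il6ra and Socs3, with a median change of -0.90. The interleukin-6 receptor complex held Il6 and Il6ra, at 2.74 and -0.90, with a median of 0.92. The term interleukin-6 receptor binding held Il6, Il6ra and Pycard, the adaptor of the inflammasome, with a median of -0.90, and Pycard fell (-2.63). In all of these Il6 was the gene with a rise.

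Of 12 genes of the term regulation of receptor signaling pathway via JAK-STAT, which includes Il6, Lif and Socs3, 4 were higher and 8 lower, and the median change was -0.89. The 2 others that were higher have no symbol. Of 11 genes of regulation of tyrosine phosphorylation of STAT protein, which holds Lif and Socs3, 3 were higher and 8 lower (median -0.90). In negative regulation of cytokine-mediated signaling pathway, 2 of 8 genes were higher, Il6 and a gene without a symbol, and 6 were lower (median -1.14). Regulation of interleukin-6 production, which holds none of the 3 genes, had 2 higher and 12 lower genes of 14, with a median of -1.06. The 2 higher ones were Tnfaip3 and P2rx7, a receptor for extracellular ATP that was listed at 1.11 and 2.64 TPM (0.79) and was named after its values were seen. Several lists share genes, so their counts are not separate results.

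Il6, Lif and Socs3 belong together to the TNF signaling pathway list of KEGG, in which 12 of 19 genes were higher and 7 lower. The study chose the genes of this list and of the next one on these libraries. Of the 19 genes 11 rose and 6 fell, against 2.85% and 3.2% of the whole table. Among the 16 genes besides Il6, Lif and Socs3, 10 were higher, 6 were lower and the median change was 1.26. Il6 and Lif thus went with the larger part of this list and Socs3 with the smaller part. In the IL-17 signaling pathway list, which holds Il6 alone of the 3, 9 of the 16 other genes were higher and 7 lower. Of all 17 genes of that list 9 rose and 6 fell. The majority direction of the TNF list was therefore opposite to that of the Jak-STAT list, which shares 6 genes with it (40.0% of the Jak-STAT list and 31.6% of the TNF list).

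Genes with a pattern most like each of the 3 were taken from those with a symbol and a mean TPM within a factor of 3, by the smallest difference in change over the 2 libraries. All candidates carry a symbol because the study had listed them, so likeness was sought among genes already selected for change. Nearest to Il6 among 196 candidates were Slc25a44, from 3.08 to 17.8 TPM (2.20), Baat, from 1.45 to 9.88 TPM (2.15), and Inpp5k, which was listed at 0 in the control and at 10.1 TPM with tigecycline. The closest of them differed from Il6 by 0.54. A gene without a symbol, ENSCGRG00015023620, was not a candidate and was closer, at 2.84 against 2.74 for Il6. With a pseudocount of 5 Baat was at 1.21. The change of Inpp5k was 3.47, and it was 6.67 and 1.59 with pseudocounts of 0.1 and 5. Nearest to Lif among 116 candidates were Cdca5 (0.995, under the limit), Vps50 (1.01) and Arfip2 (1.02). Each had a larger change than Lif, by between 0.11 and 0.13. With a pseudocount of 5 they were at 0.89, 0.88 and 0.93, and after rescaling at 0.93, 0.95 and 0.95, all under the limit. Among the neighbours of Lif described above, a gene without a symbol was closer, at 0.893 against 0.890 for Lif. Nearest to Socs3 among 192 candidates were Casp6 (-1.35), Mink1 (-1.34) and Prkca (-1.36), all within 0.0074 of it. With a pseudocount of 5 these were at -0.96, -1.06 and -0.99, and Socs3 was at -1.17. Casp6 and Prkca were then under the limit and less close to Socs3. The named genes thus came closer in change to Socs3 than to Il6, which holds only for genes with a symbol.

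Levels of marker genes were also looked up. Identifiers were at hand only for genes that the study had called significant, so this could not check the cell type. All 9 mesenchymal and fibroblast-like markers on the list had an identifier, and they summed to 7972 TPM in the control library and 3387 TPM with tigecycline. Actb, which encodes beta-actin and is used by every cell type, was the most abundant, at 3722 and 1610 TPM. The other 8 summed to 4251 TPM and 1777 TPM. All 9 fell, against 3.2% of the whole table, although Col4a1 and Spp1 were at -0.74 and -0.46 with a pseudocount of 5. Their identifiers again come from genes that the study had called significant, so a change in each was set by the choice. Vim, which encodes vimentin, stood at 2235 and 966 TPM, and Lgals1, which encodes galectin-1, at 1573 and 624 TPM. The changes of Col16a1 (-1.25), Col8a1 (-1.69), Loxl1 (-1.25) and Ltbp1 (-1.15), which encode collagens and other matrix proteins, were of similar size. For the 4 epithelial markers no identifier was at hand. Of 10 leukocyte and platelet markers 5 were found. Their summed level was 14.7 TPM in the control library and 16.0 TPM with tigecycline, and none of the 5 was at 0 in either. The most abundant of them was Lcp1 in the control, at 7.29 TPM, and Ikzf3 with tigecycline, at 8.86 TPM, after 3.2 TPM and 1.72 TPM in the other library. Ikzf3 and Selplg rose (1.86 and 1.01), and Lcp1 (-0.98), Itga2b (-0.77) and Casp1 (-0.70) were lower under the limit. With a pseudocount of 5 Ikzf3 was at 1.04 and Selplg at 0.31, and Selplg was also under the limit after rescaling (0.97). With a pseudocount of 0.1 Lcp1 was at -1.16 and Casp1 at -1.96, both past it, and Lcp1 also passed it after rescaling (-1.03) and without the 20 most abundant genes (-1.02). Ptprc, Cd68, Lyz2, Adgre1 and Pf4 were not analysed here. The part of these marker changes in the levels of Il6, Lif and Socs3 was not tested.

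The choice of pseudocount and scaling left the directions of the 3 genes and their side of the limit as they were. The change of Il6 ran from 1.96 with a pseudocount of 5 to 3.04 with a pseudocount of 0.1. That of Lif ran from 0.82 after rescaling to 0.90 with a pseudocount of 0.1, and so did not reach 1 in any of them. For Socs3 the change lay between -1.41 after rescaling and -1.17 with a pseudocount of 5.

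**Figure D4:**
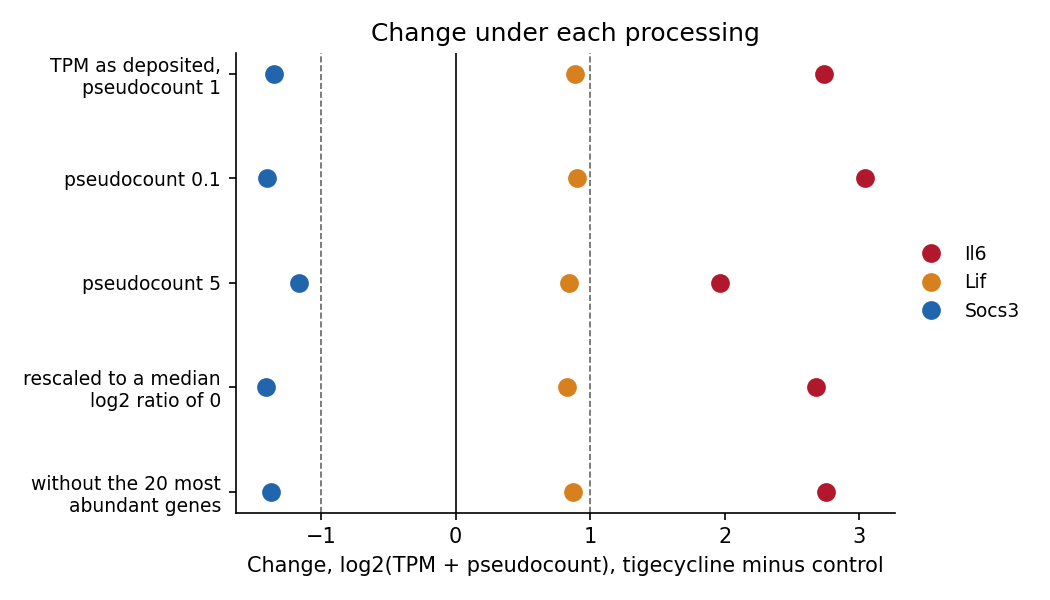
Change in log2(TPM + pseudocount), tigecycline minus control (horizontal axis), of Il6, Lif and Socs3 under the processing reported here (top row) and 4 alternatives, with dashed lines at 1 and -1. Il6 lies between 1.96 and 3.04, Lif between 0.82 and 0.90, and Socs3 between -1.41 and -1.17.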

How the data were processed

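RNA of CHO cells was sequenced in 2 libraries, control and tigecycline (0.2 mg/ml, 48 h). The deposited table holds TPM values, which the authors had scaled to a fixed sum per library and rounded to 2 decimals. The submitters' processing notes name HISAT2 2.1.0, Bowtie2 2.3.5 and RSEM 1.3.1, and the genome build is not given in the sources used here. TPM keeps no read number, so the depth is unknown and no counting interval was computed.

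Changes were computed as log2(TPM + 1), tigecycline minus control, over all 30211 genes, with a limit of 1. The members and lists were chosen with earlier results of these data known. Named were Il6, Lif and Socs3, every gene with a symbol in the Jak-STAT, cytokine receptor and gp130 lists and the 3 interleukin-6 GO terms, the 3 nearest in change to each member and the cell type markers. Exceptions named after their values were seen were Pxn and P2rx7. List members came from the study's supplementary lists of differentially expressed genes, used only where complete. Symbols were found for 376 genes, 360 by the gene name in a supplementary table that is held in part and 16 through its NCBI gene numbers and RefSeq genes (CriGri-PICRH-1.0). A planned search of promoters for motifs was not run. The counting and scaling were tested on simulated data. The alternatives are given in the closing section. Python 3.11.15, numpy 2.4.6, pandas 2.3.3 and matplotlib 3.10.9 were used.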

Additional observations from a re-analysis of the deposited data

How the results depend on the processing

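No paired analysis was possible because each condition had a single library, and none could be left out. Of 28 values under the alternatives (the changes of Il6, Lif and Socs3, the gaps between each cytokine and Socs3, and the medians of the Jak-STAT and cytokine receptor lists), 27 kept their direction and stayed within 1.5 times. The exception was the median of the cytokine receptor list, at -0.83 with a pseudocount of 1 and at -0.36 with a pseudocount of 5, which shrinks the changes of low genes by construction. A pseudocount cannot turn the direction of a gene, and every setting uses the same 2 libraries, so this says nothing of stability between cultures. The gap between Il6 and Socs3 ran from 3.13 to 4.44 and that between Lif and Socs3 from 2.01 to 2.3. The number of genes past the limit was 1827 (861 higher, 966 lower), and it was 4144 with a pseudocount of 0.1, 831 with a pseudocount of 5 and 634 at a limit of 1.5. After rescaling by the median log2 ratio of 0.07 the higher share of these genes was 40.6%, against 47.1%. Of 34 other named genes, for which the settings were chosen after the data were examined, 13 crossed the limit under at least 1 setting.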

Other observations

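Lists of inflammatory response genes that the study chose on these libraries gave changes in both directions. In response to interleukin-1, which holds Il6, 7 of 13 genes were higher and 6 lower, and the median change was 0.66 on the log2(TPM + 1) scale. Without Il6 the other 12 genes were split into 6 higher and 6 lower, and their median was -0.17. With so even a split the sign of the median is not particular to Il6. In cellular response to tumor necrosis factor, which also holds Il6, 8 of 14 were higher and 6 lower (median 0.92). In cellular response to lipopolysaccharide 10 of 17 were higher and 7 lower (median 0.82). Il6 had the largest rise in the first of these lists. In the second it came after Inpp5k, which was listed at 0 in the control, and in the third after 2 genes without a symbol.

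In negative regulation of inflammatory response, which holds Socs3 and not Il6, 5 of 15 genes were higher, 10 were lower and the median was -1.35, and Socs3 was itself the gene at the median. In regulation of cytokine-mediated signaling pathway, which holds both, 3 of 13 were higher and 10 lower (median -1.29). Il6 had the largest rise of that list. The lists overlap, and none was compared with lists of genes that the study had not selected. The ratio of Il6 to Socs3 was 22.4 times as high in the tigecycline library as in the control, a value from 1 library each.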
